A study of Mus musculus with 140 samples.

Results

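The proteasome subunit genes described here are the protein-coding mouse genes whose GRCm38 symbol starts with Psma, Psmb, Psmc, Psmd or Psme followed by a number. The annotation holds 45 such symbols, and 42 of them were among the 11461 genes measured. Psma8, Psmb11 and Psme2b were not analysed here. The symbol rule also takes Psmc3ip, a partner protein used in meiotic recombination that is no part of the proteasome. It is kept in every count below, and 41 members remain without it.

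RNA came from the gastrocnemius, a calf muscle, of male C57B6/J mice aged 10 to 11 weeks, and each mouse gave 1 library. Mice ran on a treadmill for 1 h (Exercise) or stood on a motionless one (Sedentary, called sham here), at ZT3 in the early rest phase or at ZT15 in the early active phase. ZT, zeitgeber time, counts hours from lights on in a cycle of 12 h light and 12 h dark. Muscle was taken 0, 4, 8, 12, 16 or 20 h after the hour on the treadmill, with food and water free in the home cage, which makes 24 groups of 4 to 6 mice. Of 140 labelled samples, 3 were not analysed here. All mice shared the strain, the sex and the move to a treadmill, so no group was left unhandled. A sham series started at ZT3 is called the rest arm and one started at ZT15 the active arm. Libraries held 2.19 to 27.6 M recovered reads (median 11.0 M). All 8 muscle fibre markers on a fixed list were measured at high level, while none of 7 lymphocyte markers was among the measured genes. In bulk muscle, fewer cells of a type and less RNA per cell cannot be told apart.

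The proteasome degrades proteins that carry ubiquitin chains and is the main route by which muscle removes myofibrillar proteins during atrophy. Its 20S core is a barrel of alpha rings that gate the entrance and beta rings that hold the proteolytic sites, and the 19S cap recognises, unfolds and feeds in substrates. Transcription factors of the Nfe2l family, chiefly Nfe2l1, raise most subunit genes together through antioxidant response elements (AREs) when proteolysis is impaired. In cells exposed to interferon gamma, Psmb8, Psmb9 and Psmb10 replace the constitutive catalytic subunits Psmb5, Psmb6 and Psmb7.

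RefSeq promoters on GRCm38.p6 were found for 36 of the 42 members (39 windows of 250 bases before a start site) and were searched on both strands. The ARE core, TGACNNNGC, occurred in Psmb5, Psmb6, Psmc6, Psmd12 and Psmd9, which is 12.8% of the member windows against 10.2% of all 32851 windows. The GC box GGCGGG occurred in 27 members, 69.2% of member windows against 32.5% of all. CCAAT occurred in 35.9% against 33.8%, and the E-box CACGTG in 10.3% against 6.02% (Psma4, Psmb10, Psmd9 and Psme3). The motif of nuclear respiratory factor 1 occurred in Psma2 alone (0.782% of all windows), and the D-box TTATGNAA in no member (3.07% of all). The windows of Psmb5 and Psmb6 are printed as those of the catalytic genes among these 5, which are followed through the comparisons. The window of Psmb5 is chr14:54617996-54618245 on the minus strand and that of Psmb6 is chr11:70525107-70525356 on the plus strand. Both run 5′ to 3′ towards the start site, with the ARE core in capitals.
Psmb5: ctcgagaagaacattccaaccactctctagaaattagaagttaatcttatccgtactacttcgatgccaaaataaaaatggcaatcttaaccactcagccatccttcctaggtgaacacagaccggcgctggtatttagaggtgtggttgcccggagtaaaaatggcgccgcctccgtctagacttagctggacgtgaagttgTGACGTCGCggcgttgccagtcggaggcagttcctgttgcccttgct
Psmb6: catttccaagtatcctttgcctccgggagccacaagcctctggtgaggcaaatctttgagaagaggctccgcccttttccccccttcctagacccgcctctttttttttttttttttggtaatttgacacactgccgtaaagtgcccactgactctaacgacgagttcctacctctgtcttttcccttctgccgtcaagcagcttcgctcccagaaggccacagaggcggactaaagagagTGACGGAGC
The core began 47 bases before the start in Psmb5 and 9 bases before it in Psmb6.

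Constitutive genes of the core particle had the highest median RNA signal among the parts of the complex in this muscle. Protein was not measured. Levels between genes are given as deposited signal per kilobase of the principal transcript, averaged over all libraries. The median was 137.6 for the structural beta subunits, 118.4 for the constitutive catalytic subunits and 83.04 for the alpha ring. It was 45.04 for the 19S ATPases, 32.4 for the other 19S genes and 29.8 for the activators. Psmb6, the caspase-like catalytic subunit (ENSMUSG00000018286.6, chr11:70525367-70527858, plus strand), was the highest member at 312 per kilobase. The alpha ring genes Psma7 and Psma6 followed at 267 and 228. The inducible catalytic subunits were low, with Psmb9 at 2.48, Psmb8 at 3.01 and Psmb10 at 20.5 per kilobase. Psmc3ip was the lowest at 1.76. Among 19S members the range ran from Psmd5, an assembly chaperone of the cap, at 3.43 to Psmd8, a lid subunit, at 163 per kilobase. Psme4, the nuclear activator PA200, stood at 37.9, and the 11S subunits Psme2, Psme1 and Psme3 at 46.1, 21.6 and 7.68.

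Most members varied together from mouse to mouse within a group, and they varied with a property of the whole library. That property, the transcript-length slope, is the slope of a library's log2 deviations on log2 exon length over the protein-coding genes. It ranged from -0.29 to 0.41. A negative slope means that short transcripts had the higher values. With the mean of the 42 genes and the slope both centred within groups, Pearson r was -0.98 and Spearman rho -0.98. Without centring, r was -0.98 and rho -0.97 over all libraries. That r was -0.97 without the 2 libraries farthest from the median slope. The points share library and normalization, and the slope comes from the same values. With log2 read depth the correlation within groups was -0.46 by both measures. Slopes computed with and without the members both gave a median member change of 0.14 in the first comparison below. The members are 42 of 10806 protein-coding genes, so leaving them out could hardly move the slope, and this agreement decides nothing. The members were short on the whole: their median exon length was 2814 bases against 4684.5 for protein-coding genes, and the median principal transcript 1490 against 3106 bases.

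**Figure D1:**
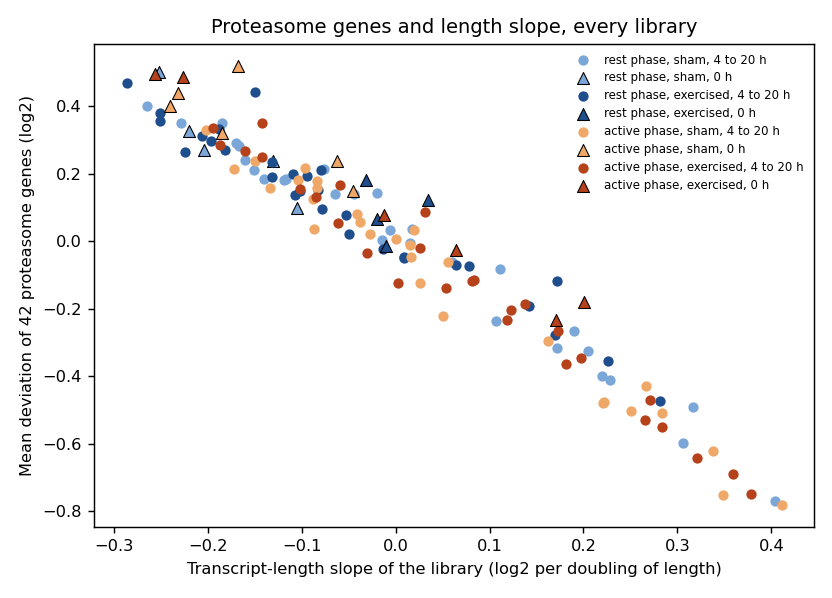
Mean log2 deviation of the 42 genes (vertical axis) against the transcript-length slope of the library (horizontal axis), with 1 point for each library, triangles for muscle taken at 0 h and colours for phase and treatment. The points of all groups fall along 1 descending band (r = -0.98).

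Within groups, 32 of 42 members correlated with the slope below -0.5, which is 76.2% against 31.4% of all genes. Another 4 lay above 0.5, and 6 lay between. As a group the constitutive beta subunits followed it most closely, from r = -0.907 for Psmb1 to r = -0.961 for Psmb4. The inducible Psmb8, Psmb9 and Psmb10 followed it less closely, with r of -0.735, -0.745 and -0.861. Psmb5, Psmb6 and Psmb7 had r of -0.946, -0.951 and -0.954, and changed by -0.31, -0.33 and -0.23 on the log2 scale for each rise of 0.1 in the slope. The alpha ring ran from -0.825 (Psma3) to -0.957 (Psma2).

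The 4 members that moved the other way were PA200 and 3 cap subunits, with 4038 to 8382 exonic bases each. Psme4, the longest of them, had r = 0.923 and was higher by 0.28 on the log2 scale for each 0.1 of slope. The scaffold subunit Psmd2 had r = 0.723, the lid subunit Psmd3 0.832 and the lid subunit Psmd11 0.544. Other members in that length range did not move so. Psmd5 was nearly flat at r = -0.067, while Psmd1 had 0.478, Psmc2 -0.443, Psmd9 -0.701 and Psmb1 -0.907. The most alike pair was Psmb6 with Psma2 (r = 0.98), and the most opposed Psmb4 with Psme4 (r = -0.91).

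Members changed more with the slope than their length alone would give. They changed by a median of -0.22 on the log2 scale per 0.1 of slope, whereas a gene of their exon length would change by -0.06 and one of their principal transcript length by -0.12. Below these predictions lay 35 and 33 of the 42. Cytosolic ribosomal protein genes (81 genes) changed by -0.38 and nuclear-encoded oxidative phosphorylation genes (81 genes) by -0.34. The median correlation over 861 pairs of members was 0.61, and 0.08 once the slope was removed. The median standard deviation of a member within groups fell from 0.44 to 0.20 on the log2 scale, and that of all genes from 0.41 to 0.29. The main fit holds no length term. Values at equal slope come from a second fit with the slope as a covariate.

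**Figure D2:**
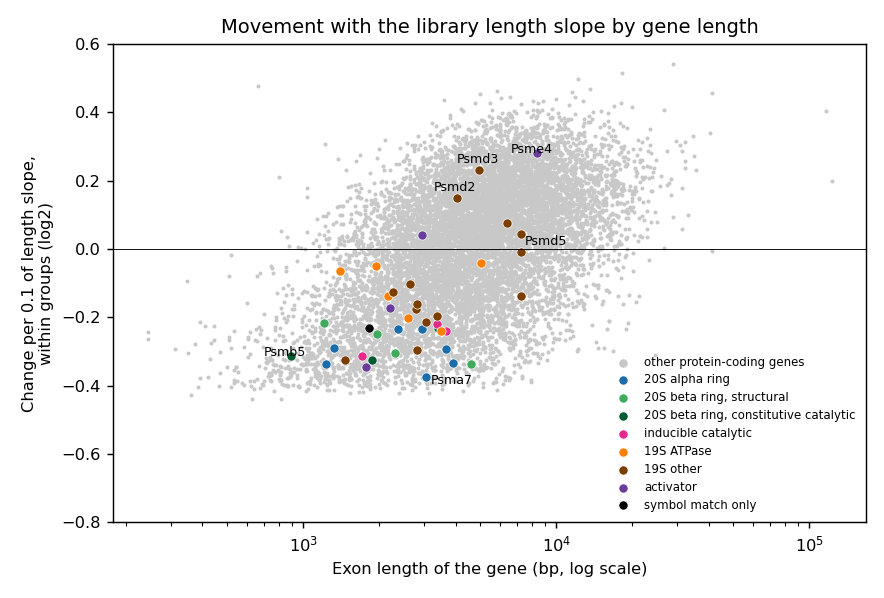
Log2 change per rise of 0.1 in the transcript-length slope (vertical axis) against exon length in bases (horizontal log axis), with members coloured by role over the other protein-coding genes in grey. Core subunits such as Psma7 and Psmb5 lie low among genes of their length, while Psme4, Psmd3 and Psmd2 lie above 0.

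Directly after exercise the level of most members was lower than after sham in both phases, and no single gene passed the test. At 0 h in the rest phase 32 of 42 members had a negative change, with a median of -0.19 on the log2(value + 0.5) scale. At 0 h in the active phase 34 were negative, with a median of -0.28. The medians over all genes lay within 0.043 of 0 in these comparisons. In limma 0 of 42 members passed an adjusted p of 0.05 at any hour in either phase. Of all genes, 0.384% passed at some hour after rest-phase exercise and 1.19% at some hour after active-phase exercise; at 0 h the shares were 0.349% and 1.18%. The unadjusted mark of 0.05 was met by 4 members against 15% of all genes in the former, and by 5 against 21.7% in the latter. edgeR on the recovered reads and DESeq2 also called 0 members in each comparison. At equal length slope the medians became 0.14 and 0.01.

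The libraries themselves differed in slope between these groups. In the rest phase the slope averaged -0.01 ± 0.03 (SD, n = 4) after exercise and -0.18 ± 0.06 (n = 5) after sham. In the active phase it averaged -0.01 ± 0.19 (n = 6) and -0.16 ± 0.08 (n = 6). The mean deviation of the members was 0.09 ± 0.08 after exercise against 0.29 ± 0.15 after sham in the rest phase, and 0.10 ± 0.32 against 0.34 ± 0.14 in the active phase. The part of the slope in the difference between exercise and sham was not tested beyond the fit that holds it equal.

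**Figure D3:**
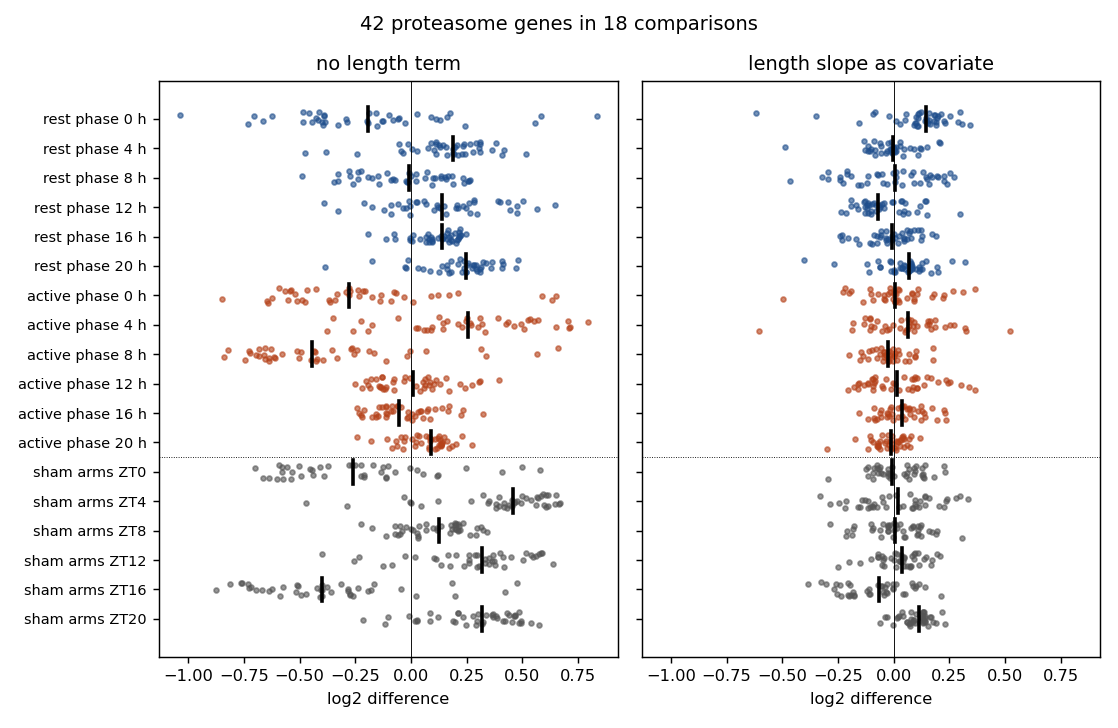
Log2 differences of the 42 genes in the 12 exercise comparisons and the 6 comparisons of sham arms at equal clock time, without a length term in 1 panel and with the length slope as covariate in the other, with points for genes and black bars for medians. Medians run from -0.44 to 0.46 without the term and from -0.07 to 0.14 with it.

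In the core particle the change at 0 h was nearly uniform. All 7 alpha ring genes, which form the gated outer ring, were negative at 0 h in the rest phase, with a median of -0.43, and all 7 were positive at equal slope, with a median of 0.11. The structural beta subunits had a median of -0.34 (0.15 at equal slope) and the constitutive catalytic subunits -0.39 (0.16). After active-phase exercise the same medians were -0.54 (-0.04), -0.29 (0.05) and -0.36 (0.002). Psmb5, the chymotrypsin-like subunit, measured 62.8, 105.1 and 182 as lowest, median and highest after exercise at 0 h in the active phase, and 104.4, 141.3 and 204.5 after sham. The groups overlapped, and its change was -0.36 ± 0.32 (SE; limma adjusted p = 0.41).

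The inducible catalytic subunits were the only role group whose members were all negative at 0 h in both phases with and without the length term; whether they differ from the other groups was not tested. Their median changes were -0.73 (rest phase) and -0.65 (active phase), which became -0.35 and -0.19 at equal slope. In the rest phase Psmb9, the inducible caspase-site subunit, measured 1.97, 2.45, 1.58 and 2.25 after exercise and 4.46, 5.45, 5.12, 5.16 and 3.61 after sham. Every exercised library lay below every sham library. Its change was -1.04 ± 0.36 (limma adjusted p = 0.30), with a 95% interval from -1.75 to -0.33. At equal slope the change was -0.62 ± 0.25 (adjusted p = 0.43).

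In the active phase Psmb9 ranged from 0.761 to 3.29 (median 1.51) after exercise and from 1.55 to 5.16 (median 3.90) after sham. A single read was worth 0.254 in exercised replicate 1 and 0.0697 in exercised replicate 5, so the lowest values rest on few reads at unequal depth. The groups overlapped, with exercised replicates 3, 4 and 6 inside the sham range and the other 3 below it. The change was -0.85 ± 0.31 (adjusted p = 0.15), and -0.50 ± 0.21 at equal slope (adjusted p = 0.26).

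Psmb8, the inducible chymotrypsin-like subunit, measured 3.67, 3.60, 4.50 and 2.38 after exercise in the rest phase and 8.52, 6.67, 5.20, 6.67 and 4.21 after sham. The groups overlapped by the highest exercised and the lowest sham library, and the change was -0.73 ± 0.33 (adjusted p = 0.31), or -0.35 at equal slope. Psmb10, which replaces Psmb7, measured 26.6, 21.5, 15.4 and 19.9 after exercise and 39.03, 33.6, 35.7, 31.04 and 29.7 after sham. These groups did not overlap, yet the change of -0.70 ± 0.40 had an adjusted p of 0.37 and became -0.15 at equal slope. That SE rests on a spread estimated for the gene over all 24 groups, not on these libraries alone.

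Marker genes of several cell types also differed between these groups, and 0 of them passed the test. For macrophages and leukocytes the summed level of the 13 measured markers of 14 was 322 to 376 (median 367) after exercise and 503 to 582 (median 554) after sham at 0 h in the rest phase. In the active phase it was 220.2 to 473 (median 352) and 362 to 665 (median 496). Over all libraries Lyz2 averaged 247 and the next marker, H2-Aa, 26.4, so this sum mostly follows 1 gene. Of the 13, 11 and 10 were lower after exercise, by medians of -0.39 and -0.31. At equal slope 10 were lower in each phase, by medians of -0.18 and -0.15. Itgam was not among the measured genes, and no measured marker was at 0 on average. All 5 erythrocyte markers were lower after exercise in both phases, by medians of -0.67 (rest phase) and -0.46 (active phase). Their summed level at 0 h in the rest phase was 485 to 823 (median 578) after exercise and 970.4 to 1367 (median 1052) after sham, with no overlap. The erythrocyte medians were -0.22 and -0.0054 at equal slope. Of 6 adipocyte markers 6 and 4 were lower, by medians of -0.44 and -0.41, which became -0.18 and -0.09. All 5 fibroblast markers were lower in both phases and both fits, by medians of -0.32 and -0.19, or -0.32 and -0.28 at equal slope. Endothelial markers (7 genes) had medians of 0.46 and 0.36, or -0.06 and -0.02 at equal slope. Muscle fibre markers (8 genes) had 0.58 and 0.61, or 0.34 and 0.26.

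Interferon and antigen presentation genes (13 genes) had medians of 0.16 and 0.14 at 0 h, or 0.05 and -0.0045 at equal slope, with 0 called. The part of any of these lists in the values of the inducible subunits was not tested.

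**Figure D4:**
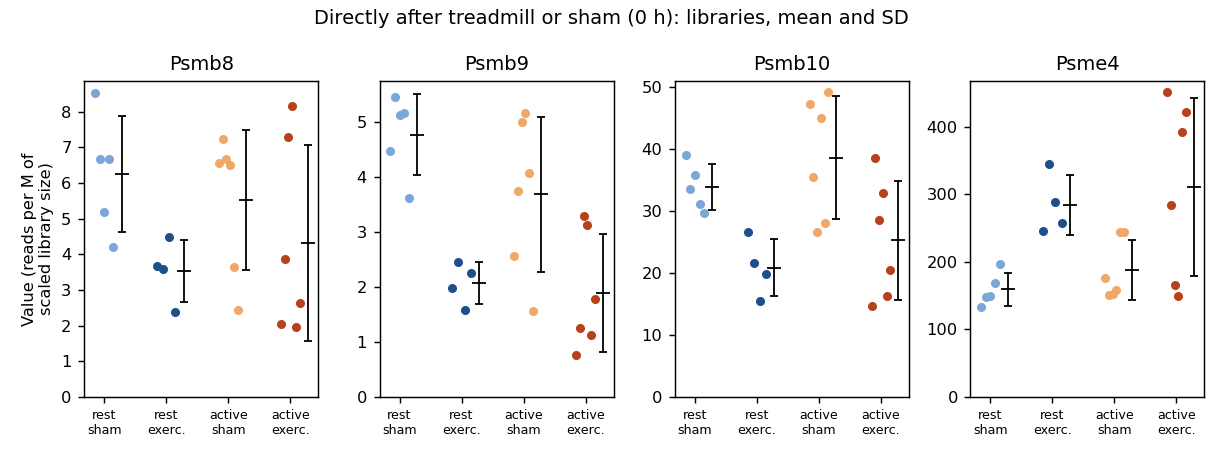
Deposited signal of Psmb8, Psmb9, Psmb10 and Psme4 (vertical axes) in the 4 groups taken at 0 h, with points for libraries and mean ± SD. In the rest phase the exercised libraries of Psmb9 (1.58 to 2.45) lie below every sham library (3.61 to 5.45), and those of Psme4 (245.1 to 345) lie above every sham library (132.4 to 197).

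In the 19S cap the median changes at 0 h lay nearer to 0. Its 6 ATPases, which unfold substrates, had median changes of 0.02 (rest phase) and -0.07 (active phase), which became 0.20 and 0.04 at equal slope. The other 14 cap genes (Psmd1 to Psmd14) had medians of -0.07 and -0.14, which became 0.17 and 0.02. They are not all cap subunits, since assembly chaperones such as Psmd5 are among them. Psmd2 had higher values after exercise in both phases. It measured 163, 167, 186 and 145 after exercise in the rest phase against 118.3, 123.2, 114.8, 113.3 and 92.9 after sham. After active-phase exercise it ranged from 149.6 to 194 after exercise and from 98.9 to 142.4 after sham. The groups did not overlap in either phase. The changes were 0.56 ± 0.24 (adjusted p = 0.30) and 0.59 ± 0.20 (adjusted p = 0.13), and 0.29 and 0.37 at equal slope (adjusted p = 0.73 and 0.19).

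Among the activators, Psme4 was the one with higher values after exercise in every rest-phase library. It measured 245.1, 345, 289 and 258 against 132.4, 148, 149.9, 169 and 197 after sham. In the active phase it ranged from 149.9 to 452 (median 338) after exercise and from 150.2 to 244 (median 167) after sham. There, exercised replicate 3 lay among the sham libraries, replicate 4 just below the lowest of them and the other 4 above them all. The changes were 0.84 ± 0.34 and 0.63 ± 0.29 (adjusted p = 0.30 and 0.20), and 0.34 ± 0.14 and 0.22 ± 0.12 at equal slope (adjusted p = 0.43 and 0.40).

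Psme2, the beta subunit of the 11S activator that interferon gamma induces, measured 44.4, 44.7, 32.4 and 44.4 against 76.7, 60.2, 57.9, 60.5 and 64.7 after sham in the rest phase. The groups did not overlap. Its partner Psme1 measured 27.01, 22.8, 26.4 and 27.2 against 40.3, 27.9, 38.2, 23.8 and 22.4, and the nuclear activator Psme3 20.2, 19.8, 24.5 and 22.6 against 20.999, 19.3, 20.7, 20.9 and 17.2. Both overlapped. After active-phase exercise Psme2 differed from sham by -0.52, Psme1 by -0.24 and Psme3 by 0.17, and at equal slope all 3 lay between -0.02 and 0.11 in both phases.

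Counted over libraries, 2 members had every exercised library above every sham library at 0 h in the rest phase (Psme4 and Psmd2, against 12.7% of all genes). Another 9 had every exercised library below, against 11.1% of all genes. After active-phase exercise the counts were 1 (Psmd2, against 1.25%) and 0 (against 0.951%). A fit on the 9 libraries of the rest-phase 0 h comparison alone called 15 members, 3 higher and 12 lower, where 31.9% of all genes passed. Psme4, Psmd3 and Psmd2 were the higher ones, and the lower ones included Psmb5, Psmb8, Psmb9 and Psmb10.

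Among later hours the median farthest from 0 was found 8 h after exercise in the active phase. There 37 of 42 members had a negative change, with a median of -0.44, which became -0.02 at equal slope. Of all genes 0% passed the adjusted threshold in limma, and 0 members did. Without adjustment 16 members had a p under 0.05, against 24.5% of all genes, and 0 did at equal slope, against 3.52%. edgeR gave 6 members at the unadjusted mark, against 22.9% of all genes. The alpha ring had a median of -0.68, the constitutive catalytic subunits -0.66 and the ATPases -0.22.

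A single library bore on this result. Psmb6 measured 80.3, 195, 177, 151 and 371 after exercise, for replicates 1, 2, 4, 5 and 6, and 214.5, 294 and 372 as lowest, median and highest after sham. Replicate 6 was high among the exercised libraries and the other 4 lay below every sham library. Its change was -0.72 ± 0.34 (adjusted p = 0.20). Psmb5 measured 38.6, 79.9, 83.8, 71.9 and 149.4 against 93.1, 122.2 and 178, and Psmb7, the trypsin-like subunit, 72.9, 96.8, 108.7, 87.9 and 193 against 130.7, 151 and 172. Psmd3 ran the opposite way, at 47.97, 34.4, 41.4, 43.3 and 16.9 against 15.6, 21.6 and 33.4. With all libraries of replicate 6 left out, 23 members passed, 20 lower and 3 higher (Psme4, Psmd11 and Psmd3), where 28% of all genes passed. With only the exercised library of replicate 6 left out, the median was -0.62 and 11 members passed, where 18.4% of all genes did. The slope of the exercised group was 0.12 ± 0.21 (n = 5), and that of the sham group was -0.08 ± 0.09 (n = 6).

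The other hours held few member changes. Median changes in the rest phase were 0.19, -0.01, 0.14, 0.14 and 0.25 at 4, 8, 12, 16 and 20 h. Those in the active phase were 0.26, 0.01, -0.05 and 0.09 at 4, 12, 16 and 20 h. At equal slope all 9 lay between -0.07 and 0.07. Psmd5 had the smallest p, at 4 h in the rest phase. It ranged from 9.08 to 18.7 (median 11.2) after exercise and from 14.9 to 21.1 (median 16.3) after sham, and 5 of 6 exercised libraries lay below every sham library. Its change was -0.48 ± 0.14 (adjusted p = 0.81), and -0.49 ± 0.14 at equal slope (adjusted p = 0.28), where 0.0175% of all genes passed without the term. The same share passed at 4 h in the active phase, and 0.00873% at 8 h in the rest phase. The ATPase Psmc2 ranged from 60.2 to 79.2 (median 71.6) 8 h after exercise in the rest phase, against 50.3, 66.7, 65.3, 59.5 and 53.4 after sham. The groups overlapped, with a change of 0.27 ± 0.11, and 0.27 ± 0.09 at equal slope. Psmc3ip measured 4.31, 2.70, 4.96, 1.49 and 3.27 at 4 h in the active phase, against a range of 0.945 to 2.88 (median 1.61) after sham, with a change of 0.79 ± 0.32 (adjusted p = 0.53), and 0.52 ± 0.23 at equal slope (adjusted p = 0.78).

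Averaged over the 6 hours, exercise changed 0 members by limma in either phase, where 0.288% (rest phase) and 0.497% (active phase) of all genes passed. Without adjustment 4 members in each phase had a p under 0.05, against 4.75% and 9.79% of all genes. edgeR called 0 in each. The median member change was 0.08 after rest-phase and -0.06 after active-phase exercise, and 0.01 and 0.02 at equal slope, where 0 members were called too. The ATPase Psmc5 had 0.16 ± 0.06 in the rest phase (adjusted p = 0.65), and 0.13 ± 0.05 at equal slope (adjusted p = 0.25). In the active phase Psmb9 had -0.30 ± 0.13 and Psmb8 -0.28 ± 0.12 (adjusted p = 0.48 for both), and Psmd3 had 0.26 ± 0.11 (adjusted p = 0.47). At equal slope these were -0.20 ± 0.09, -0.19 ± 0.08 and 0.17 ± 0.06 (adjusted p = 0.35, 0.36 and 0.23).

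Whether exercise acted differently in the 2 phases was tested directly over the 6 hours. No member passed in limma, and 0% of all genes did, with 0.934% at an unadjusted p under 0.05. edgeR also called 0 members. The smallest p among members was 0.11, for the ATPase Psmc1. At 8 h its change in the active phase minus that in the rest phase was -0.40 ± 0.17 (adjusted p = 0.74). The same difference was -0.61 for the ubiquitin receptor Psmd4 at that hour (adjusted p = 0.74) and 0.60 for Psmd2 at 12 h (adjusted p = 0.69). At equal slope these differences were -0.29 ± 0.14, -0.29 ± 0.16 and 0.41 ± 0.20 (adjusted p = 0.999, 0.999 and 0.69), and the median over members at 8 h went from -0.42 to -0.0075.

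The sham arms at equal clock time separate time since the handling from time of day. At ZT4 the rest arm had just left the treadmill while the active arm had left it 12 h before, and at ZT16 the roles were exchanged. In both comparisons the members were mostly higher in the arm that had just been handled. At ZT4 38 of 42 were higher in the rest arm, with a median difference (rest arm minus active arm) of 0.46. At ZT16 37 of 42 were lower in the rest arm, with a median of -0.40. At the other clock times the medians were -0.26 at ZT0, 0.13 at ZT8, 0.32 at ZT12 and 0.32 at ZT20, and at equal slope they were -0.0093, 0.0072, 0.04 and 0.11. One-sided counts were thus not particular to ZT4 and ZT16: 34 members were lower in the rest arm at ZT0. At ZT8, ZT12 and ZT20, 31, 36 and 38 were higher. At equal slope 38 were higher at ZT20 and 22 at ZT4, while 32 were lower at ZT16.

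In limma 0 members passed at any clock time, where 0.166% of all genes passed at ZT4 and 0.707% at ZT16. The shares were 0% at ZT0, 0.0262% at ZT12 and 0.0175% at both ZT8 and ZT20. At an unadjusted p under 0.05 there were 13 members at ZT4 against 22.3% of all genes, and 17 at ZT16 against 17.6%. edgeR gave 12 and 14, against 26.4% and 16.9% of all genes, and called 0. At equal slope the medians were 0.02 at ZT4 and -0.06 at ZT16. In the groups taken at 0 h the sham slopes were -0.18 ± 0.06 (rest arm, n = 5) and -0.16 ± 0.08 (active arm, n = 6), and in those taken at 12 h they were 0.01 ± 0.18 and 0.04 ± 0.18 (n = 6 each).

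At ZT16 the medians of the role groups lay apart once the slope was held equal; that difference between groups was not tested. The alpha ring went from a median of -0.63 to -0.06 and the structural beta subunits from -0.39 to 0.06. The ATPases went from -0.30 to -0.20, with 6 of 6 lower in the rest arm in both fits. The other cap genes went from -0.34 to -0.12, with 11 of 14 lower in both. At an unadjusted p under 0.05 and equal slope there were 8 members, all of the cap: Psmd1, Psmc3, Psmd4, Psmc2, Psmd13, Psmd7, Psmc1 and Psmd6. Over all genes 10.9% met that mark.

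Psmd13, a lid subunit, ranged from 46.2 to 102.1 (median 67.1) in the rest arm at ZT16 and from 82.3 to 152 (median 105.2) in the active arm. The groups overlapped by rest-arm replicate 4, at 102.1. The difference was -0.72 ± 0.21 (limma adjusted p = 0.077), and -0.39 ± 0.09 at equal slope (adjusted p = 0.0091). Psmc3, an ATPase, ranged from 137.99 to 262 (median 193) in the rest arm and from 274 to 400.2 (median 294) in the active arm. These groups did not overlap. The difference was -0.67 ± 0.21 (adjusted p = 0.11), and -0.32 ± 0.09 at equal slope (adjusted p = 0.033). These were the 2 members called at equal slope, where 1.34% of all genes were.

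At ZT4 the same genes were higher in the rest arm, which was then the arm just handled. Psmd13 measured 112.3, 93.4, 99.3, 89.7 and 77.0 in the rest arm and ranged from 44.1 to 81.3 (median 65.02) in the active arm. Psmc3 measured 368, 243, 256, 239 and 242 against 117.2 to 226 (median 197), with no overlap. Psmd7, another lid subunit, measured 53.2, 58.3, 51.4, 52.7 and 42.6 against 26.4 to 46.5 (median 33.9). The differences were 0.54 ± 0.22, 0.57 ± 0.22 and 0.57 ± 0.18 (adjusted p = 0.19, 0.19 and 0.17), and 0.10, 0.12 and 0.28 ± 0.12 at equal slope (adjusted p = 0.86, 0.86 and 0.74). At ZT16 Psmd7 differed by -0.47 ± 0.17 (adjusted p = 0.17), and by -0.26 at equal slope. The arms also differ in the light phase of the handling, so at each clock time hours since handling and phase of handling cannot be told apart.

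Across the 6 clock times jointly, limma called 0 members where 0.768% of all genes passed. Without adjustment 19 members had a p under 0.05, against 24.1% of all genes. The smallest adjusted p values were 0.070 for Psmd7, 0.071 for Psmd13, 0.090 for Psmc3 and 0.091 for Psmd4, and at equal slope they were 0.59, 0.15, 0.35 and 0.53.

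**Figure D5:**
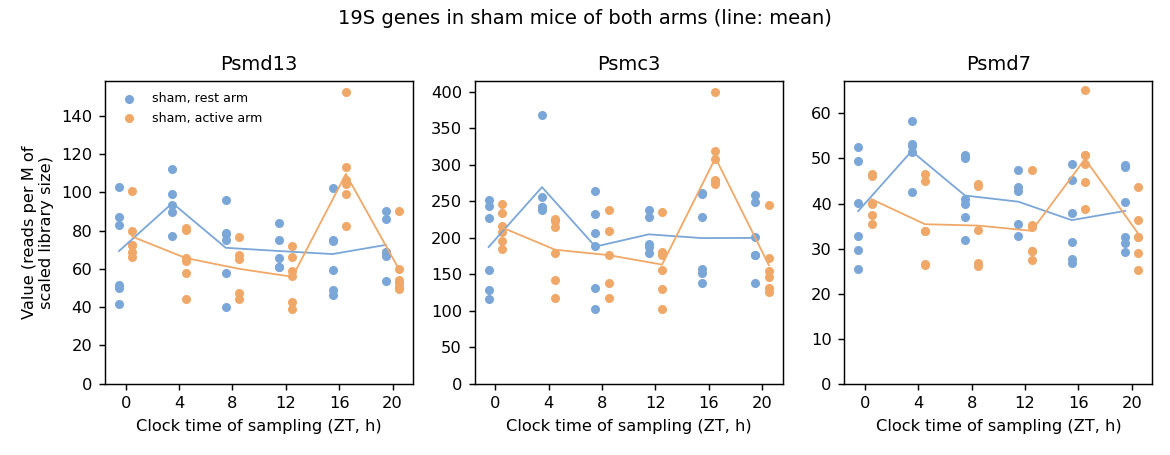
Deposited signal of Psmd13, Psmc3 and Psmd7 (vertical axes) by clock time in h of ZT (horizontal axis) in the rest arm and the active arm of sham mice, with points for libraries and lines for group means. Group means are highest at ZT4 in the rest arm (94.3 for Psmd13) and at ZT16 in the active arm (109.5 for Psmd13), the time at which each arm had just left the treadmill.

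In sham mice no member passed a test of 24 h rhythm, while core clock genes did. A 24 h cosine was fitted in each of the 4 series of groups. In sham mice 0 members were called in either arm, where 0.942% of all genes were called in the rest arm and 2.48% in the active arm. Of 18 measured core clock genes, 9 and 13 were called in the same fits. Psmd7 alone met an unadjusted p under 0.05 in the rest arm, against 9.57% of all genes, and Psmc2 and Psmc5 did in the active arm, against 12.6%. edgeR called 0 in both and gave 1 and 3 at the unadjusted mark, against 8.59% and 12.6% of all genes. Each arm holds a single cycle, so clock time and hours since handling cannot be told apart within an arm.

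The rhythm that both sham arms share at equal clock time was called for 0 members and 3.94% of all genes. Psme3 was the 1 member at an unadjusted p under 0.05, against 14.5% of all genes, and edgeR called 0. Without a length term Psme3 had the smallest p (amplitude 0.11 on the log2 scale, peak at ZT21.8, adjusted p = 0.23). The rhythm in which the arms oppose each other, as a response locked to the handling would, was called for 0 members and 0.0524% of all genes, with 2 members at an unadjusted p under 0.05, against 6.41% of all genes, and 6 in edgeR (against 6.1%), which called 0. At equal slope the shared rhythm was called for Psmb7 alone (amplitude 0.09 ± 0.02, peak ZT17.6, adjusted p = 0.022), where 13.2% of all genes were called. Psmb9 had an amplitude of 0.20 in that fit, with a peak at ZT5.20 (adjusted p = 0.064).

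In exercised mice 0 members were called without a length term, where 1.65% (rest phase) and 4% (active phase) of all genes were called. Unadjusted p values under 0.05 were found for 1 and 3 members, against 10.8% and 14% of all genes, and edgeR called 0 in both. Psmc3 had the smallest p in the active phase (amplitude 0.29 ± 0.10, peak ZT16.6, adjusted p = 0.18), and its median was 252 at 0 h, 170 at 4 h and 158 at 8 h. At equal slope 4 members were called in the active phase, where 8.92% of all genes were. They were Psmb9 (amplitude 0.45 ± 0.09, peak ZT4.84, adjusted p = 0.00044), Psmb8 (0.31 ± 0.08, ZT6.73, 0.025), Psmc3 (0.17 ± 0.04, ZT16.1, 0.010) and Psme4 (0.19 ± 0.05, ZT17.1, 0.020). In the rest phase it was Psmd13 alone (0.17 ± 0.04, ZT3.94, 0.026), where 5.82% of all genes were called. Each exercised series also holds a single cycle, so clock time and hours since exercise cannot be told apart in these fits. A change of rhythm between exercised and sham mice was called for 0 members in either phase, and for 0% of all genes in limma. No member reached an unadjusted p under 0.05 for it, against 1.66% and 1.38% of all genes, and edgeR called 0.

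Directly after exercise some genes around the proteasome passed the test that no subunit passed. Assembly factors and regulators of the particle (17 genes, such as the Psmg chaperones and Pomp) had medians of -0.05 and 0.01 at 0 h in the rest and active phases, with 0 called, and 0.11 and 0.10 at equal slope. Among 15 transcription factors and processing enzymes of the Nfe2l pathway and related regulators, 14 were positive in each phase, with medians of 0.66 and 0.60. Of these, 2 passed after rest-phase and 4 after active-phase exercise, all higher, where 0.349% and 1.18% of all genes passed. This list and the other gene lists were chosen with earlier results of these data known, so their counts are descriptive.

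The stress-responsive factor Nfe2l2 rose by 0.80 ± 0.18 in the rest phase (limma adjusted p = 0.0065) and by 0.78 ± 0.15 in the active phase (adjusted p = 0.00025). Its small Maf partner Maff rose by 2.39 ± 0.31 (adjusted p = 3.6e-08) and 2.79 ± 0.27 (adjusted p = 7.9e-15). Mafk rose by 1.08 ± 0.18 and the repressor Bach1 by 0.87 ± 0.15 in the active phase (adjusted p = 1.0e-05 and 1.4e-05). At equal slope the list's medians were 0.21 in both phases and the same counts passed. In that fit 56 (rest phase) and 165 (active phase) of all 11461 genes were called higher at 0 h, and 3 and 32 lower.

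The 5 members with an ARE core in the searched window changed by -0.41 to -0.03 at 0 h in the rest phase and by -0.55 to -0.09 in the active phase. At equal slope the ranges were 0.09 to 0.18 and -0.20 to 0.09. The smallest adjusted p over all 6 hours and both phases was 0.20.

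Of 22 ubiquitin ligases and conjugating enzymes known from muscle, 19 were positive at 0 h in each phase, with medians of 0.42 and 0.47. Trim63, the atrophy-related ligase MuRF1, rose by 1.156 ± 0.22 after rest-phase exercise (adjusted p = 0.00082) and by 0.94 ± 0.19 after active-phase exercise (adjusted p = 0.00063). The conjugating enzyme Ube2j1 rose by 0.50 ± 0.12 after active-phase exercise (adjusted p = 0.0092). The other 20 did not pass. Of all genes 0.349% (rest phase) and 1.18% (active phase) passed at 0 h. With the slope held equal, the ligase medians were 0.12 and 0.20 and the same genes passed. Ubiquitin and shuttle genes (18 genes) had medians of 0.22 and 0.29, with 0 called. These became 0.16 and 0.19 at equal slope, and 1 passed: Nploc4, a cofactor of the segregase p97, was higher by 0.45 ± 0.11 after rest-phase exercise (adjusted p = 0.020). These 3 lists followed the length slope in the opposite direction to the members, with a median r of 0.70 for the transcription factors, 0.68 for ubiquitin and shuttle genes and 0.72 for the ligases.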

How the data were processed

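Total RNA depleted of ribosomal RNA was sequenced as stranded paired-end libraries, per the labels' protocols. Tools and builds in the submitters' processing notes are FastQC 0.11.5 for read quality, Trim Galore 0.4.3 with cutadapt 1.16, STAR 2.5.3a as aligner, featureCounts 1.5.2, edgeR 3.2.23, and mm10 (GRCm38). Neither annotation release nor strand setting is given in the sources used here. The authors deposited a signal per gene and library, which is reads per M of a scaled library size: values sum to 0.633 to 1.90 M, and within a tolerance of 0.05 all values were whole reads. Of 140 labelled samples, 3 had no file here.

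Gene symbols came from the GRCm38 annotation (11454 of 11461 genes matched, 10806 protein-coding). The main test was limma 3.58.1 (R 4.3.3) on log2(value + 0.5), with trend and robust options and 24 groups, and Benjamini-Hochberg adjustment over all genes at 0.05. Each gene had a spread estimated over all 24 groups together. The SEs and p-values of a comparison thus do not rest on its own libraries alone. Fold changes on this scale understate those of low genes. Rhythm used cosine and sine terms of 24 h. The rhythms shared by or opposed between the sham arms were added after the data were seen, as were single-library omissions. Alternatives were the length slope as covariate (also from principal transcripts, or without members), a subtracted length trend, a replicate block, array weights, each comparison's own libraries alone, other pseudocounts and filters, edgeR 4.0.16 and DESeq2 1.42.0 on recovered reads, and each replicate left out. The scripts were tested on simulated data. Per-sample values are given for the members with the 3 smallest p in each family, called members, the catalytic subunits, the activators and the extremes of level. Members and lists were chosen with earlier results of these data known. Each library is a different mouse, so p-values measure the spread between libraries. Differences between mice and between library preparations cannot be told apart in that spread.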

Additional observations from a re-analysis of the deposited data

Results flagged for a closer look

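In 3 of 78 groups checked a single library lay far from the rest, and chance gives about 1 in 20. The mean log2 deviation of the 42 genes was -0.35 in replicate 4 of the rest-phase exercised group at 4 h, where the nearest library was at 0.08. The length slope of that library was 0.23, against -0.21 to -0.05 in the other 5. Psmc3 measured 400.2 in replicate 1 of the active-arm sham group at 0 h, where the next library was at 319. It measured 368 in replicate 1 of the rest-arm sham group at 0 h, where the next was at 256.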

How the results depend on the processing

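Of 1526 alternative values, 1434 kept their side of the threshold or stayed within the spread between replicates. Holding the length slope equal moved the median member changes and turned their sign at 0 h in both phases and, at ZT4 and ZT16, left them near 0. With the slope from all genes, without members, from principal transcripts, or with a replicate block, the medians became 0.144, 0.144, 0.142 and 0.138 at 0 h (rest phase), and 0.0064, 0.0058, 0.024 and 0.0043 at 0 h (active phase). They became -0.0229, -0.0234, -0.0132 and -0.0197 at 8 h in the active phase, 0.0186, 0.0185, 0.0267 and 0.0038 for the sham arms at ZT4, and -0.0640, -0.0645, -0.0714 and -0.0730 at ZT16. Subtracting a length trend left -0.08, -0.13, -0.29, 0.25 and -0.30 in the same order. Under these 4 settings the rhythm fit called 1, 1, 2 and 4 members in rest-phase exercised mice. It called 4, 4, 4 and 5 in active-phase exercised mice, and 1, 1, 1 and 3 in the rhythm shared by the sham arms. At ZT16, 2 members were called in each setting and with the trend subtracted. With the block and the slope, 1 (Psmb7) was called in the rhythm fit of active-arm sham mice. With the slope from all genes, the shares of all genes were 5.82% (rest-phase exercised), 8.92% (active-phase exercised), 13.2% (shared) and 1.34% (ZT16). Shares are not given for the other settings, so those counts cannot be set against all genes. Array weights, which weight libraries by their fit, called 39 (rest phase) and 34 (active phase) members at any hour, against 62.7% and 68.4% of all genes, and 7 and 24 on average over hours, against 5% and 39.6%. They called 33 in the interaction (42.7% of all genes), 36 over the sham arms (57.1%), and 33, 9 and 20 at ZT0, ZT4 and ZT20 (42.4%, 9.57% and 27.6%). For rhythm they called 16, 1, 2, 3 and 2 members in rest-arm sham, active-arm sham, active-phase exercised, shared and opposed sham fits (33.6%, 12.1%, 10%, 28.9% and 6.44% of all genes) and 1 for the change of rhythm in the rest phase (7.49%). They gave a median of 0.70 at 20 h in the rest phase. Own libraries alone called 15 members in the rest phase, against 31.9% of all genes at 0 h. Without libraries of low correlation Psmd13 was the 1 member called at ZT16. Leaving out each replicate gave medians of -0.32 to -0.12 at 0 h in the rest phase. It called 0 to 23 members in the active phase and 0 to 1 at ZT16 (Psmd13, without replicate 4). The 23 were called without replicate 6, where 28% of all genes passed at 8 h. Replicate numbers were not used to pair the samples in the main fit. Of 66 correlations of deviations 36 were over 0.1, with a median of 0.14 and a range from -0.75 to 0.89. In 0 of 12 comparisons were all pairs over 0.1, which cannot exclude a link between samples of equal number. A replicate block alone called 2 members over the sham arms (Psmd13 and Psmd7) and no other. The share of all genes is not given for that fit, nor for those without replicate 4 or without libraries of low correlation. DESeq2 and own-library fits were not run for joint, rhythm or averaged tests. The cause of these differences was not tested.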
